A study of Homo sapiens with 46 samples.

Results

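The extracellular matrix genes described here are the 63 genes, of 21183 Ensembl genes in the deposited transcript tables, that encode collagen chains (38 genes), laminin chains (11 genes) or one of 14 further matrix proteins (FN1, SPARC, HSPG2, AGRN, NID1, NID2, FBN1, FBN2, FBLN1, VCAN, TNC, THBS1, THBS3 and VWF). Membership was decided by gene symbol, and the counts of all transcripts of a gene were summed per Ensembl gene. The RNA-seq libraries came from fractionated cells of H1, an established line of human embryonic stem cells, either kept pluripotent (hPSC) or differentiated towards ectoderm, endoderm or mesoderm. The question set by the design for these genes is how their RNA differed between the 4 cell types, and how it was divided between cytoplasm, nucleus, nucleoplasm and chromatin.

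Matrix proteins are secreted. Their messenger RNAs are translated by ribosomes on the endoplasmic reticulum, a membrane that is continuous with the nuclear envelope, and the chains are modified, folded and assembled there before export. Type IV collagen and laminins form the sheet-like basement membrane on which epithelia rest, with nidogens, perlecan (HSPG2) and agrin (AGRN) linking both networks. Fibrillar collagens, fibronectin (FN1) and fibrillins build the fibres between cells, and matricellular proteins such as SPARC and tenascin C (TNC) bind to these fibres and to cells and alter how cells attach.

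The hPSC cultures were kept on Matrigel, itself a basement membrane extract, in mTeSR1 medium. Ectoderm cultures received A83-01, PNU-74654 and dorsomorphin with KOSR. Endoderm cultures received WNT3A and Activin A. Mesoderm cultures received VEGF, BMP4 and bFGF, with Activin A on the first day only. Differentiated cells were collected after 5 days. All fractionation buffers contained alpha-amanitin, an inhibitor of RNA polymerase II, in every group. The series design text speaks of actinomycin D, but no sample label does. There were 46 libraries in 16 groups, 15 of them with 3 libraries and mesoderm nucleoplasm with 1. The labels do not say whether libraries of a group came from separate cultures, so p-values measure the spread between these libraries, which may be technical.

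Total counts ran from 4990408 to 21298678 a library. The labelled cell types were compared with marker lists in the cytoplasm libraries, unless another fraction is named. All 8 endoderm markers were listed in the endoderm table, with summed levels of 455 to 617 CPM (counts per 1000000 of the library's total). The 7 of 8 ectoderm markers listed in the ectoderm table summed to 1147 to 1374 CPM. In mesoderm, 6 of 10 mesoderm markers were listed, at 363 to 394 CPM in sum, against 36.7 to 40.8 for the 5 listed in hPSC. The defining early marker TBXT stood at a mean of 0.1 CPM in mesoderm. The 7 trophoblast and amnion markers summed to 625 to 668 CPM there, against 35.7 to 41.3 in hPSC (4 listed). In endoderm the 3 listed summed to 138 to 172 CPM, and the 9 mesoderm markers listed in endoderm to 232 to 294 CPM. Neural crest markers were highest in mesoderm, at 178 to 203 CPM (4 listed), against 38.7 to 42.3 in ectoderm (4 listed). In the nucleus libraries the mesoderm marker sums went the other way, at 260 to 286 CPM in mesoderm and 401 to 472 in hPSC. On chromatin they overlapped. The 3 ectoderm markers listed in mesoderm summed to 1261 to 1586 CPM in its nucleus, against 432 to 464 for 3 in hPSC. The 7 listed in ectoderm summed to 1268 to 1480 CPM in the ectoderm nucleus. The cultures labelled mesoderm are called mesoderm below after their label. The 8 pluripotency markers summed to 4878 to 5569 CPM in hPSC cytoplasm. Those listed summed to 524 to 699 CPM in ectoderm (7 listed), 2433 to 3129 in endoderm (7 listed) and 1248 to 1419 in mesoderm (4 listed). In bulk RNA, fewer cells of a kind and less RNA per cell cannot be told apart. Each cell type was counted against its own transcript assembly, so in comparisons between cell types the effect of the assembly and that of the cell type cannot be told apart.

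The promoter stretches below are shown because they belong to the genes that the results turn on: the 2 pairs of type IV collagen genes that are transcribed in opposite directions from a shared stretch of DNA, and FN1, the gene with the highest mean level. The sequences come from RefSeq (GRCh38.p14), which held promoters for 47 of the 63 genes. They are the bases between the annotated starts, or upstream of the start, of these genes, not transcribed sequence. Capitals mark every match, on either strand, to the CCAAT box (CCAAT), the GC box (GGGCGG), the cyclic AMP response element (TGACGTCA) and the TATA box (TATAA).
COL4A1-COL4A2, chr13:110307158-110307283 (+): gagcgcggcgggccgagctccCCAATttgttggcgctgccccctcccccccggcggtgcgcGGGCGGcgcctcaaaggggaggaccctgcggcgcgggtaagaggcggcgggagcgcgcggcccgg
COL4A6-COL4A5, chrX:108439588-108439708 (+): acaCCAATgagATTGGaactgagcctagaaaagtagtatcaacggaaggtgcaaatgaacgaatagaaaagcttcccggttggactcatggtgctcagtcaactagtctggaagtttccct
FN1, chr2:215436069-215436318 (-): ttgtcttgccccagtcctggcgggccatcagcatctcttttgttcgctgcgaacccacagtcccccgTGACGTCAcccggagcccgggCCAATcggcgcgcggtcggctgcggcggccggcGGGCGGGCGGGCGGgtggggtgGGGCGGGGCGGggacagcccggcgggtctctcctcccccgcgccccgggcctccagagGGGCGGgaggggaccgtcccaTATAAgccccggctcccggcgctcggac

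The COL4A1 and COL4A2 starts lay 127 bases apart, with 1 CCAAT and 1 GGGCGG between them. Over all 35116 promoters, the 126 bases upstream of the start held a CCAAT in 21.1% and a GGGCGG in 34.6%. The COL4A6 start used here lay 380 bases from that of COL4A5. The 121 bases shown held 2 CCAAT matches facing each other. A CCAAT was present in 20.6% of promoters over that length directly upstream of the start. The bases shown lay further from both starts, so the positions compared differ. The 250 bases upstream of FN1 held 1 CCAAT (32.0% of promoters), 6 GGGCGG matches, overlapping ones included (42.6%), 1 TATAA (18.9%) and 1 TGACGTCA (1.65%). These matches describe the letters and no binding was measured.

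The matrix genes took up a small share of cytoplasmic counts in each cell type and a larger share in the nuclear fractions. In hPSC they made up 0.103%, 0.105% and 0.116% of the counts of the 3 cytoplasm libraries, and 1.22% to 1.58% in the nucleus. The hPSC nucleoplasm held 0.662% to 0.721% and the chromatin 0.781% to 1.05%. The hPSC nucleus libraries thus lay above both nuclear subfractions and not between them. In endoderm the cytoplasm libraries lay between 0.372% and 0.449%, the nucleus between 7.40% and 9.52%, and the nucleoplasm between 10.3% and 11.6%. In mesoderm they lay between 0.383% and 0.492% in cytoplasm and between 4.57% and 5.26% in the nucleus, and the single nucleoplasm library stood at 3.79%. In ectoderm the cytoplasm held 0.317% to 0.381% and the nucleus 1.11% to 1.32%. No cytoplasm library of a differentiated culture overlapped with hPSC, whereas the ectoderm and hPSC nucleus libraries overlapped.

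FN1 on its own accounted for a median of 4.89% of the counts of an endoderm nucleoplasm library (range 4.78% to 5.57%). Without FN1, the other matrix genes still took a median of 5.74% there. In the mesoderm nucleus FN1 took a median of 1.77% and the others 3.04%. In the hPSC nucleus FN1 took 0.0475%.

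**Figure D1:**
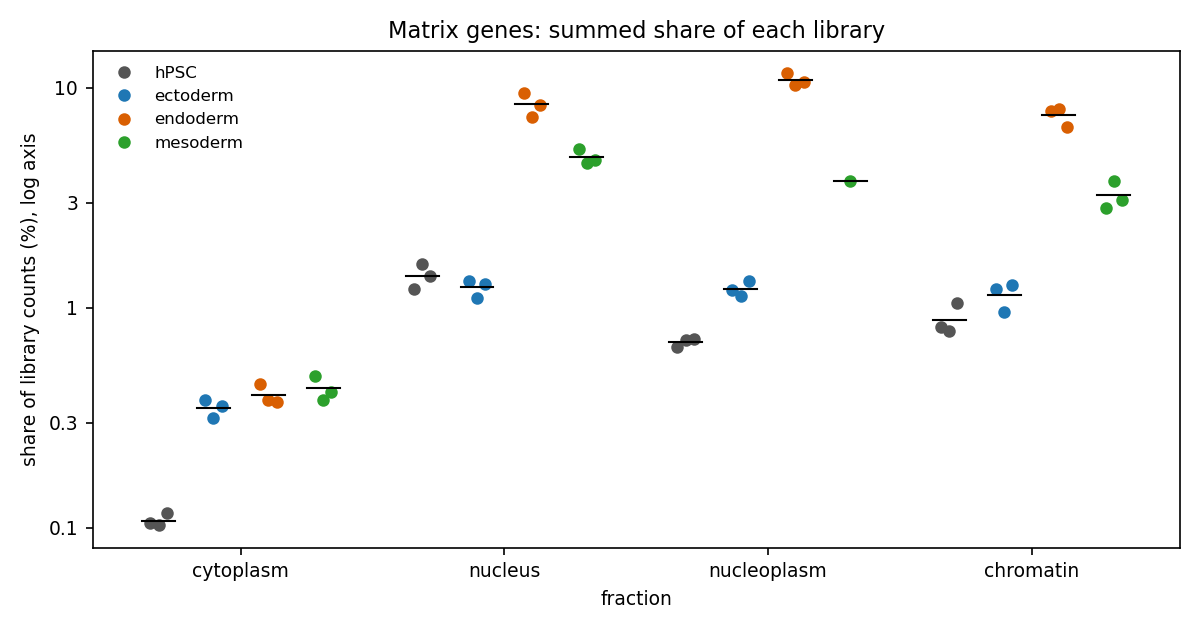
Summed share of the matrix genes in each library (percent of the library's counts, log axis), by fraction and cell type; points are libraries and lines are group means. The endoderm nucleoplasm libraries are highest, at 10.3% to 11.6%, and the hPSC cytoplasm libraries lowest, at 0.103% to 0.116%.

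Ranked by the authors' TPM, a transcript level scaled for transcript length, averaged over the 16 groups, FN1 led with 2052 TPM. That mean was carried by endoderm and mesoderm, where FN1 led in each fraction. In the nucleus FN1 stood at 79.4 TPM in hPSC, below COL18A1 (443), and at 24.9 TPM in ectoderm, below FBLN1 (423). By the mean over all groups, COL18A1 (747), AGRN (468), FBLN1 (430), SPARC (403) and LAMA5 (365) followed. The next were COL4A1 (283), HSPG2 (269), COL6A1 (262), COL1A1 (235), COL4A2 (220) and COL9A3 (219). The COL4A1 value holds a short hPSC transcript described further below.

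In the cytoplasm, most of the matrix genes tested rose on differentiation in each lineage. Of the 63, 44 were listed in all 4 tables, and these 44, over which the counts below run, passed the filter on low counts in every comparison between cell types. By edgeR's quasi-likelihood test at an adjusted p below 0.05, 35 were higher and 6 lower in ectoderm than in hPSC cytoplasm (median log2 change 1.61). In endoderm 29 were higher and 4 lower (median 0.87), and in mesoderm 37 were higher and 4 lower (median 1.16). Large parts of the transcriptome were called too: 76.0% of the 10678 genes tested in ectoderm, 59.6% in endoderm and 68.0% in mesoderm. Of all genes, 39.0% were higher and 37.0% lower in ectoderm, 27.4% and 32.2% in endoderm, and 34.9% and 33.0% in mesoderm. These 3 comparisons share the hPSC libraries.

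In the nucleus libraries the 3 lineages parted. Endoderm had 36 matrix genes higher and 4 lower than hPSC (median log2 change 2.11, with 57.0% of all genes called, 28.7% higher and 28.3% lower), and mesoderm 27 higher and 5 lower (median 0.86, 54.0% called, 26.0% higher and 27.9% lower). Ectoderm had 12 higher and 17 lower (median -0.24, 57.6% called, 28.8% higher and 28.9% lower). On the authors' TPM the ectoderm nuclear split was 9 higher and 24 lower, and of all genes called on TPM 29.4% were higher.

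On chromatin, 38 were higher and 3 lower in endoderm (61.9% of all genes called, 31.1% higher and 30.8% lower). Mesoderm chromatin had 36 higher and 3 lower (54.3% called, 28.5% higher and 25.8% lower), and ectoderm chromatin 18 higher and 13 lower (62.4% called, 32.3% higher and 30.1% lower). In the nucleoplasm 43 were higher and 1 lower in endoderm, with a median log2 change of 3.03 (77.1% called, 36.9% higher and 40.2% lower). Ectoderm nucleoplasm had 28 higher and 11 lower (79.5% called, 40.0% higher and 39.5% lower). Mesoderm nucleoplasm had 1 library and was not tested.

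**Figure D2:**
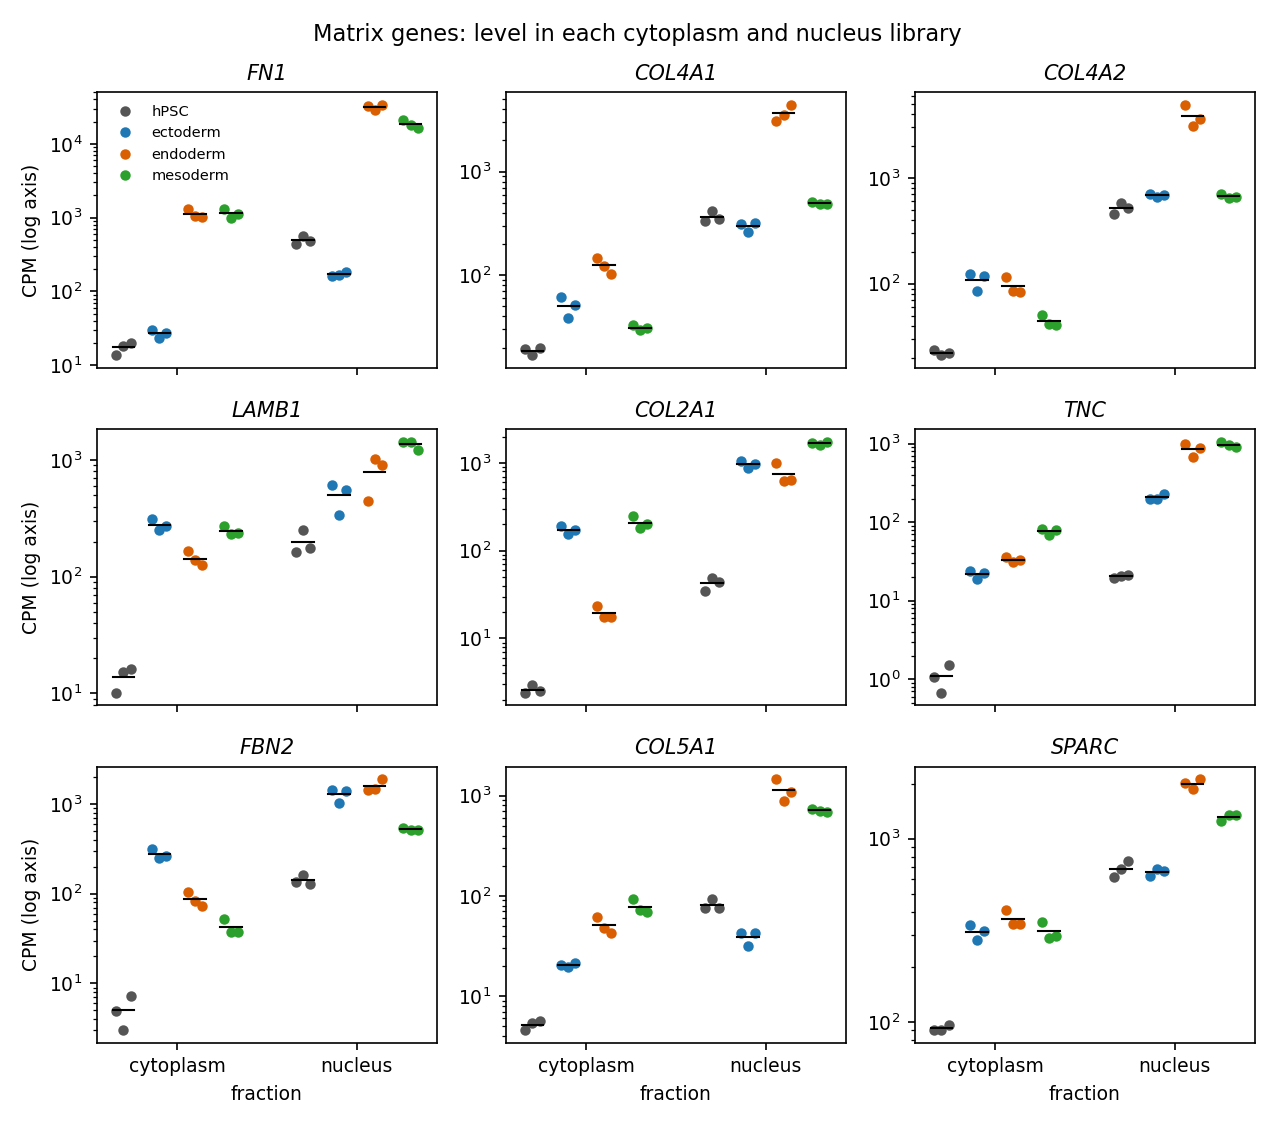
Level of 9 matrix genes (CPM, log axis) in each cytoplasm and nucleus library of the 4 cell types; points are libraries and lines are means. FN1 in the endoderm and mesoderm nucleus lies between 16445 and 33984 CPM, and in hPSC cytoplasm between 13.6 and 20.3 CPM.

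FN1 (ENSG00000115414) encodes fibronectin, the glycoprotein that cells assemble into fibrils through integrins. In cytoplasm it stood at 13.6, 18.4 and 20.3 CPM in the hPSC libraries and at 30.3, 23.1 and 27.7 CPM in ectoderm. In endoderm it reached 1295, 1047 and 1011 CPM and in mesoderm 1316, 996 and 1119 CPM. All libraries of each lineage were above all hPSC libraries, and the endoderm and mesoderm libraries overlapped. The rise was 54.5-fold in endoderm (log2 5.77 ± 0.17 SE, adjusted p 2.24e-12, edgeR), 62.9-fold in mesoderm (5.97 ± 0.17, 1.88e-12) and 1.47-fold in ectoderm (0.56 ± 0.15, 0.00291). Endoderm and mesoderm differed by -0.20 ± 0.13, which was not called (adjusted p 0.213, edgeR). In the nucleoplasm the 3 endoderm libraries held 55673, 47786 and 48939 CPM against 235, 252 and 267 in hPSC, a 282-fold rise (log2 8.14 ± 0.13). In the nucleus, ectoderm went the other way, with 163, 168 and 184 CPM against 442, 556 and 475 in hPSC, 2.73-fold lower (adjusted p 0.00035, edgeR).

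The other fibre-forming glycoproteins showed an order of lineages unlike that of FN1. FBN2, a fibrillin of embryonic microfibrils, was highest in ectoderm cytoplasm, at 318, 250 and 265 CPM, against 4.92, 3.01 and 7.3 in hPSC, a 52.4-fold rise. It stood at 103, 81.9 and 73.6 CPM in endoderm and 51.7, 37.4 and 37.6 CPM in mesoderm, and no library of one cell type overlapped with another. FBN1, the main fibrillin of later microfibrils, rose in ectoderm cytoplasm from 0.48, 1 and 1.59 CPM to 21.9, 17.4 and 21.7 CPM (log2 4.14 ± 0.29). In endoderm (0.26 ± 0.36) it was not called, and in mesoderm (0.81 ± 0.35) it passed with an adjusted p of 0.0497 by edgeR. FBLN1, a fibulin that binds fibronectin and basement membranes, rose in all 3 lineages, by 1.45 ± 0.10, 1.39 ± 0.10 and 1.01 ± 0.10 in ectoderm, endoderm and mesoderm. In the ectoderm nucleus FBN2 (3.23 ± 0.19) and FBN1 (2.46 ± 0.20) were higher than in hPSC.

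The network collagens form the meshwork of basement membranes, and the 4 measured in all cell types (COL4A1, COL4A2, COL4A5 and COL4A6) rose in the cytoplasm of each lineage on counts, while on the authors' TPM COL4A1 reversed in all 3. COL4A1 (ENSG00000187498) stood at 19.3, 16.8 and 19.8 CPM in hPSC cytoplasm, and at 61.8, 38.8 and 51.3 in ectoderm. It reached 146, 123 and 103 in endoderm and 32.9, 29.4 and 31 in mesoderm, with endoderm above and hPSC below all other libraries. COL4A2, whose chain joins that of COL4A1 in one trimer, stood at 23.5, 21 and 22.4 CPM in hPSC and 123, 85.4 and 117 in ectoderm, a 4.66-fold rise. In endoderm it stood at 116, 85.6 and 83.8 CPM, overlapping with ectoderm, and in mesoderm at 51, 41.9 and 40.6. In endoderm nucleoplasm COL4A1 held 7093, 6296 and 6840 CPM against 167, 187 and 162 in hPSC (54.9-fold higher), and COL4A2 held 3443, 3388 and 3362 CPM against 212, 221 and 194 (22.7-fold higher). In the nucleus both were higher in endoderm (COL4A1 3.72 ± 0.19, COL4A2 3.35 ± 0.28) and neither was called in ectoderm or mesoderm.

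The second divergent pair, COL4A5 and COL4A6, rose most in ectoderm cytoplasm. COL4A6 stood at 4.44, 4.21 and 4.25 CPM in hPSC and 63, 55 and 57.1 in ectoderm (13.1-fold higher). It stood at 50.7, 38.3 and 39.5 CPM in endoderm and 44.3, 33.4 and 36.6 in mesoderm. Those 2 lineages overlapped, and ectoderm lay above both. COL4A5 stood at 9.84, 10 and 10.5 CPM in hPSC, 95.3, 66.5 and 77.8 in ectoderm, 34.6, 30.5 and 23.1 in endoderm and 54.6, 43.5 and 45.2 in mesoderm, with no overlap between cell types. In endoderm nucleoplasm COL4A6 was at 1182, 1077 and 1091 CPM against 29.4, 26.4 and 28.6 in hPSC (log2 5.79 ± 0.09).

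COL4A1 changed direction between counts and TPM in more comparisons than any other matrix gene. In the hPSC table a second COL4A1 transcript with no Ensembl transcript name held 0.3% of the gene's counts in the nucleus and 25.5% in cytoplasm (21.1% to 34.3%). On the authors' TPM this transcript stood at 159 ± 32.8 (SD, n = 3) in cytoplasm, against 2.16 ± 0.447 for ENST00000375820.10. The sum over COL4A1 transcripts in TPM was therefore lower in each lineage's cytoplasm than in hPSC, by limma's test on log2(TPM + 1).

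Laminins are trimers of an alpha, a beta and a gamma chain. The 5 laminin genes described here (LAMA1, LAMA5, LAMB1, LAMB2 and LAMC1) rose in ectoderm and in mesoderm cytoplasm, and in endoderm 3 of them rose and 1 fell. LAMB1 (ENSG00000091136), the common beta chain, moved most. It stood at 10.1, 15.4 and 16.1 CPM in hPSC cytoplasm, 313, 252 and 275 in ectoderm, 166, 139 and 125 in endoderm and 272, 233 and 239 in mesoderm. The rises were 19.1-fold in ectoderm (log2 4.26 ± 0.15), 8.75-fold in endoderm and 17.0-fold in mesoderm, with ectoderm and mesoderm overlapping and both above endoderm. LAMC1, the gamma chain of most laminins, rose in all 3 lineages, by 1.73 ± 0.13, 0.72 ± 0.13 and 1.98 ± 0.13.

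The alpha chains, which give a laminin its binding to cells, differed between lineages. LAMA1, the embryonic alpha chain, was highest in endoderm cytoplasm, at 186, 160 and 143 CPM, followed by ectoderm at 105, 91.7 and 105, mesoderm at 37.4, 29.3 and 29.1, and hPSC at 24.3, 19.4 and 26.6. LAMA5 showed another order, with 397, 311 and 346 CPM in mesoderm and 309, 336 and 313 in ectoderm, which overlapped. In endoderm LAMA5 was at 93.6, 96.7 and 103 CPM and in hPSC at 93.6, 86.4 and 95.2, again overlapping (log2 change -0.13 ± 0.11, adjusted p 0.315, edgeR). LAMB2 rose in ectoderm (1.18 ± 0.12) and mesoderm (0.82 ± 0.12). Its fall in endoderm (-0.50 ± 0.12) was lost without TMM scaling and on TPM. In the nucleus, all 5 of these genes were higher in endoderm and 3 in mesoderm, and in ectoderm LAMB1 was higher (1.38 ± 0.24) and LAMB2 lower.

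Nidogens, perlecan and agrin bridge the laminin and collagen IV networks. All 4 genes rose in ectoderm and mesoderm cytoplasm, and in endoderm 2 rose (AGRN and HSPG2) and NID1 fell. NID1 stood at 7.08, 9.16 and 12.2 CPM in hPSC and 70.9, 51 and 57.2 in ectoderm (log2 2.57 ± 0.15), and at 15, 12.8 and 13.2 CPM in mesoderm. Endoderm libraries, at 6.59, 7.24 and 6.08 CPM, overlapped with hPSC on this scale, although the TMM-scaled difference was called (-0.76 ± 0.17, adjusted p 0.0013, edgeR). AGRN, agrin, was abundant throughout. Its cytoplasmic level was 103, 115 and 136 CPM in hPSC, 262, 222 and 263 in ectoderm, 200, 186 and 204 in endoderm and 310, 223 and 249 in mesoderm, so that each lineage lay above hPSC. HSPG2 rose by 1.57 ± 0.11, 1.13 ± 0.11 and 1.54 ± 0.11 in ectoderm, endoderm and mesoderm. In endoderm nucleoplasm AGRN rose 7.05-fold, from 640, 728 and 779 CPM to 3727, 3531 and 3554.

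Fibrillar collagens make the cross-striated fibres of connective tissue. All 7 measured in every cell type rose in ectoderm and mesoderm cytoplasm, and 6 of 7 in endoderm, COL1A1 being the exception (-0.28 ± 0.13, adjusted p 0.0686, edgeR). COL2A1 (ENSG00000139219), the cartilage and notochord collagen, had the largest rise of the 7 in ectoderm and mesoderm, and COL5A1 in endoderm (3.05 ± 0.16). It stood at 2.4, 2.94 and 2.52 CPM in hPSC cytoplasm, 191, 154 and 174 in ectoderm (62.4-fold higher), 23.7, 17.5 and 17.8 in endoderm (6.36-fold higher) and 249, 180 and 199 in mesoderm (76.1-fold higher). Ectoderm and mesoderm overlapped, and endoderm lay between them and hPSC. COL11A1, whose chain lies inside type II collagen fibres, followed the same order of levels except that ectoderm was above mesoderm. Its libraries read 5.4, 3.34 and 3.45 CPM in hPSC, 105, 73.7 and 96.1 in ectoderm, 17.9, 15.4 and 12.8 in endoderm and 61.2, 44.4 and 48.4 in mesoderm.

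COL5A1 and COL5A2 encode type V chains, which start and limit type I fibres, and were highest in mesoderm cytoplasm. COL5A1 stood at 4.56, 5.35 and 5.64 CPM in hPSC and 93.7, 72.5 and 68.6 in mesoderm (14.4-fold higher), against 62.1, 47.4 and 42.9 in endoderm and 20.3, 19.7 and 21.5 in ectoderm. COL1A1 (ENSG00000108821), the main type I chain, was at 62.3, 83.3 and 94.3 CPM in hPSC and rose in mesoderm to 252, 191 and 205 (log2 1.38 ± 0.13). The ectoderm rise in COL1A1 was 0.40 ± 0.13 in cytoplasm, while in the nucleus it fell, from 834, 1136 and 1026 CPM to 413, 385 and 389 (-1.27 ± 0.28). COL1A2, the partner chain of COL1A1, likewise rose in ectoderm cytoplasm (0.56 ± 0.15) while its nuclear libraries went from 460, 632 and 551 to 266, 203 and 218 CPM, without overlap. Of the 7 genes, 2 were higher and 4 lower in the ectoderm nucleus, COL2A1 (4.55 ± 0.31) and COL11A1 being the higher ones. In the endoderm nucleus and in the mesoderm nucleus 6 of the 7 were higher.

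**Figure D3:**
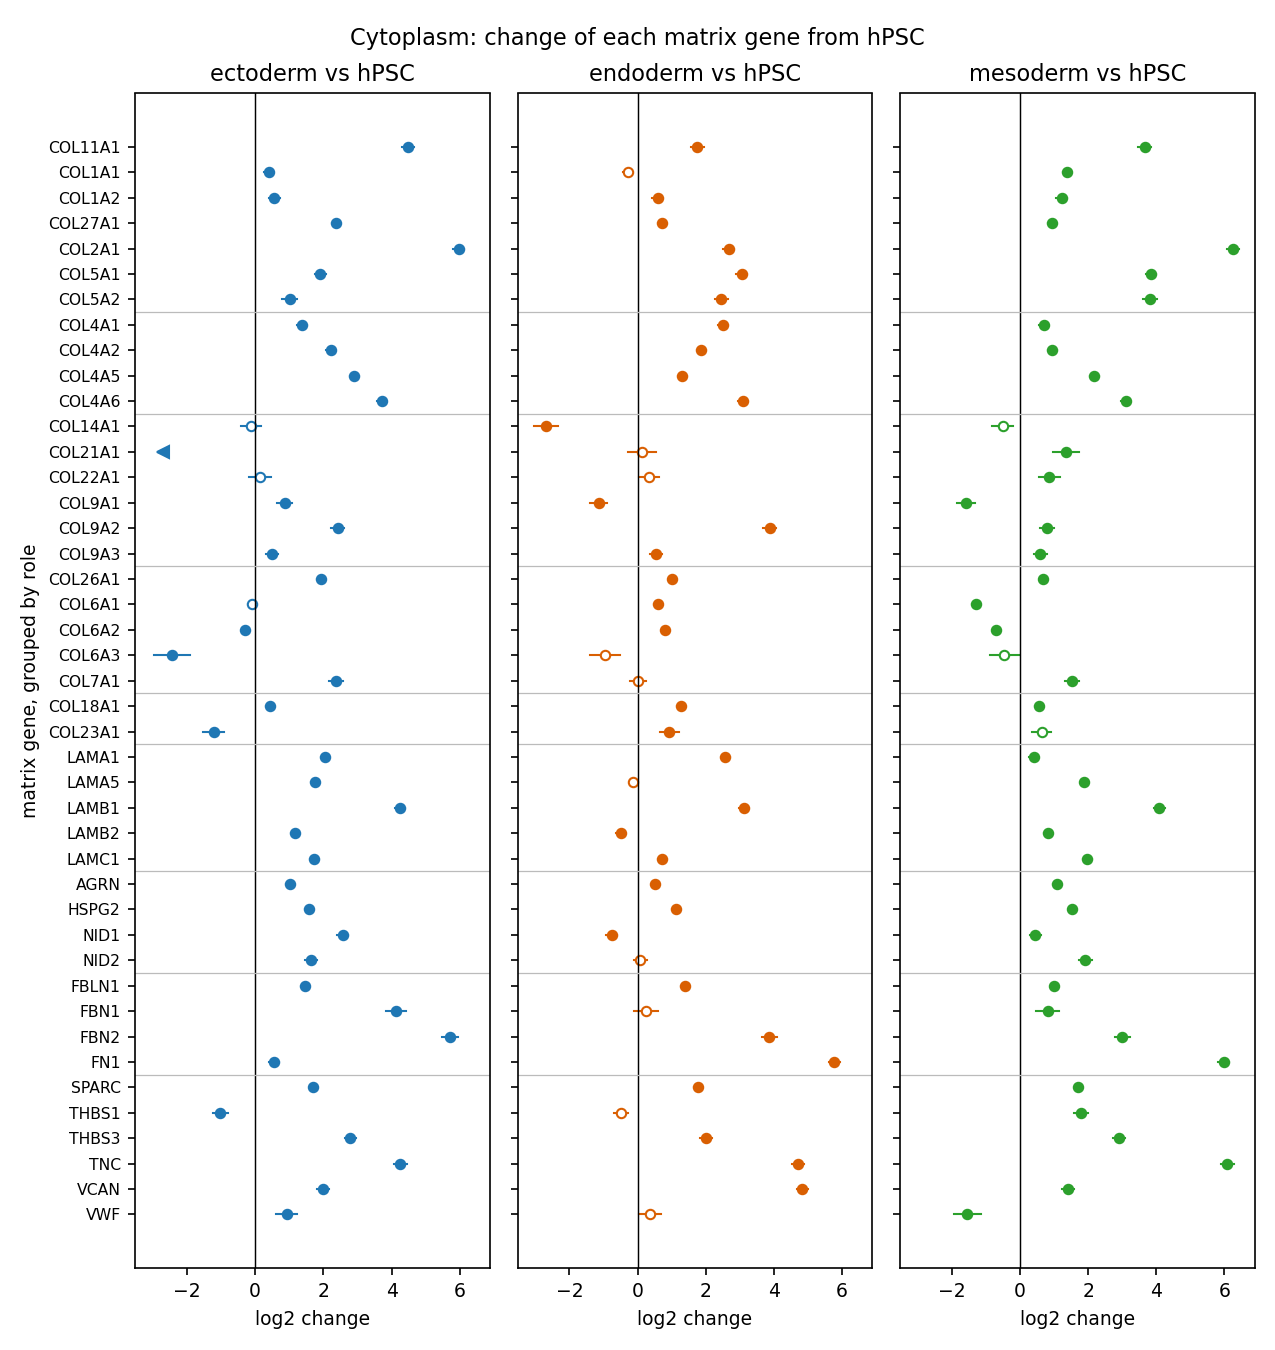
Log2 change of each matrix gene in cytoplasm against hPSC (horizontal axis; points with bars are edgeR estimates ± SE, filled where called, the triangle a gene drawn at its bound because its ectoderm libraries held no counts), genes grouped by role and lineages in panels, with 1 tested gene not drawn. Most filled points lie to the right of 0 in each lineage, with TNC in mesoderm at 6.09 and COL6A3 in ectoderm at -2.43; COL4A1 lies to the left of 0 when read from the authors' TPM.

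Of the 6 matricellular and proteoglycan genes, 5 rose and 1 fell in ectoderm cytoplasm, 4 rose in endoderm, and 5 rose and 1 fell in mesoderm. TNC (ENSG00000041982) stood at 1.08, 0.668 and 1.53 CPM in hPSC cytoplasm, 24, 19 and 22.6 in ectoderm, 35.7, 31.5 and 33.1 in endoderm and 82.4, 69.1 and 80 in mesoderm. Its groups did not overlap, and the mesoderm rise was 67.9-fold (log2 6.09 ± 0.18). SPARC, a collagen-binding glycoprotein, rose by nearly the same amount in each lineage, 1.69 ± 0.09, 1.76 ± 0.09 and 1.71 ± 0.09 in ectoderm, endoderm and mesoderm. VCAN, versican, set endoderm apart. It stood at 151, 138 and 98.3 CPM in endoderm cytoplasm (28.6-fold above hPSC) and at 3.48, 4.14 and 3.85 in hPSC, 17.4, 15.5 and 15 in ectoderm and 12.1, 9.57 and 10.4 in mesoderm.

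In endoderm nucleoplasm VCAN reached 6067, 4982 and 5196 CPM against 52.8, 70.8 and 61.7 in hPSC (122-fold higher). In the endoderm nucleus it read 314, 702 and 659 CPM, the first library lying well below the others. THBS1, thrombospondin 1, rose 3.47-fold in mesoderm cytoplasm, from 8.04, 10.4 and 13.5 CPM to 47.9, 34.4 and 34.3. In ectoderm cytoplasm THBS1 fell (-1.02 ± 0.22), a call that was lost on TPM. In the ectoderm nucleus THBS1 was lower than in hPSC (-2.20 ± 0.19). VWF, von Willebrand factor of endothelium and platelets, was at 1.69, 1.82 and 2.32 CPM in endoderm cytoplasm but at 123, 57 and 56.2 CPM in the endoderm nucleus, against 2.36, 2.07 and 1.46 in the hPSC nucleus (56.3-fold higher). Of 6 endothelial markers, the 1 listed in endoderm stood at 44.2 to 82.4 CPM in the endoderm nucleus. The 2 listed in hPSC summed to 34.1 to 37.9 CPM in the hPSC nucleus. The marker listed in endoderm stood at 18.2 to 27.9 CPM in endoderm cytoplasm and at 142 to 162 CPM in endoderm nucleoplasm. The 2 listed in hPSC summed to 20.4 to 25.7 CPM in hPSC nucleoplasm. Endothelial markers summed to 10.3 to 12.4 CPM in mesoderm cytoplasm, where VWF was at 0.586, 0.525 and 0.222 CPM.

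FACIT collagens, which sit on the surface of fibres, did not move as a group. Type IX collagen has 3 chains, and its genes took separate courses. COL9A2 stood at 66.2, 47.8 and 54.3 CPM in endoderm cytoplasm against 3, 3.41 and 3.32 in hPSC. In the nucleus it read 1592, 1342 and 1275 CPM in endoderm against 9.53, 13.4 and 10.1 in hPSC, 171-fold higher (log2 7.42 ± 0.30). COL9A1 fell in endoderm cytoplasm (-1.14 ± 0.25) and in mesoderm cytoplasm (-1.58 ± 0.26), and rose in ectoderm (0.86 ± 0.23). COL9A3 changed little, by 0.50 ± 0.19 to 0.60 ± 0.19 in cytoplasm, and each of those calls was lost when one of the libraries was left out.

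COL14A1, undulin, was the gene that fell most in endoderm. In the nucleus it stood at 115, 149 and 135 CPM in hPSC, 21.2, 13.5 and 17.6 in ectoderm, 2.01, 2.93 and 2.94 in endoderm and 39.6, 41.2 and 32.6 in mesoderm. The groups did not overlap, and the endoderm level was 39.0-fold lower than hPSC. It was the only matrix gene lower in endoderm nucleoplasm (-2.79 ± 0.11). COL22A1, found at tissue junctions, was low in cytoplasm and highest in the mesoderm nucleus, at 25.4, 24 and 22.6 CPM against 5.16, 6.51 and 5.33 in hPSC. COL21A1 had 0 counts in the 3 ectoderm cytoplasm and the 3 ectoderm nucleoplasm libraries. Against a floor of 3 counts a library it was at least 6.47-fold lower than hPSC in cytoplasm and at least 24.7-fold lower in nucleoplasm.

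Type VI collagen forms beaded filaments around cells, and 2 of its 3 measured genes fell in mesoderm cytoplasm. COL6A1 stood at 67.8, 50.6 and 55 CPM in hPSC cytoplasm and at 27.2, 21.3 and 24.4 in mesoderm (-1.30 ± 0.12), and COL6A2 fell there too (-0.69 ± 0.10). In endoderm COL6A1 rose to 108, 94.4 and 103 CPM in cytoplasm (0.60 ± 0.11). Its nuclear level rose 4.40-fold in endoderm, to 2882, 1778 and 1809 CPM from 593, 752 and 672, and fell 3.55-fold in mesoderm. COL6A3 was 18.3-fold lower in the ectoderm nucleus, at 2.58, 2.02 and 2.52 CPM against 40.3, 51.9 and 43.2. The 5 beaded filament and anchoring collagens were 1 higher and 3 lower in both the ectoderm and the mesoderm nucleus, and 4 higher and 1 lower in endoderm. On the authors' TPM the mesoderm nucleus had 2 higher and 1 lower, and 88.4% of all genes called on TPM were higher there. COL26A1 rose in the cytoplasm of all 3 lineages, from 41.9, 44.5 and 45.3 CPM to 188, 157 and 177 in ectoderm, 111, 95.1 and 104 in endoderm and 85, 64.3 and 69.7 in mesoderm. COL18A1, the basement membrane multiplexin that yields endostatin, rose in the endoderm nucleus 9.45-fold, from 1449, 1910 and 1702 CPM to 15250, 9308 and 10393.

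**Figure D4:**
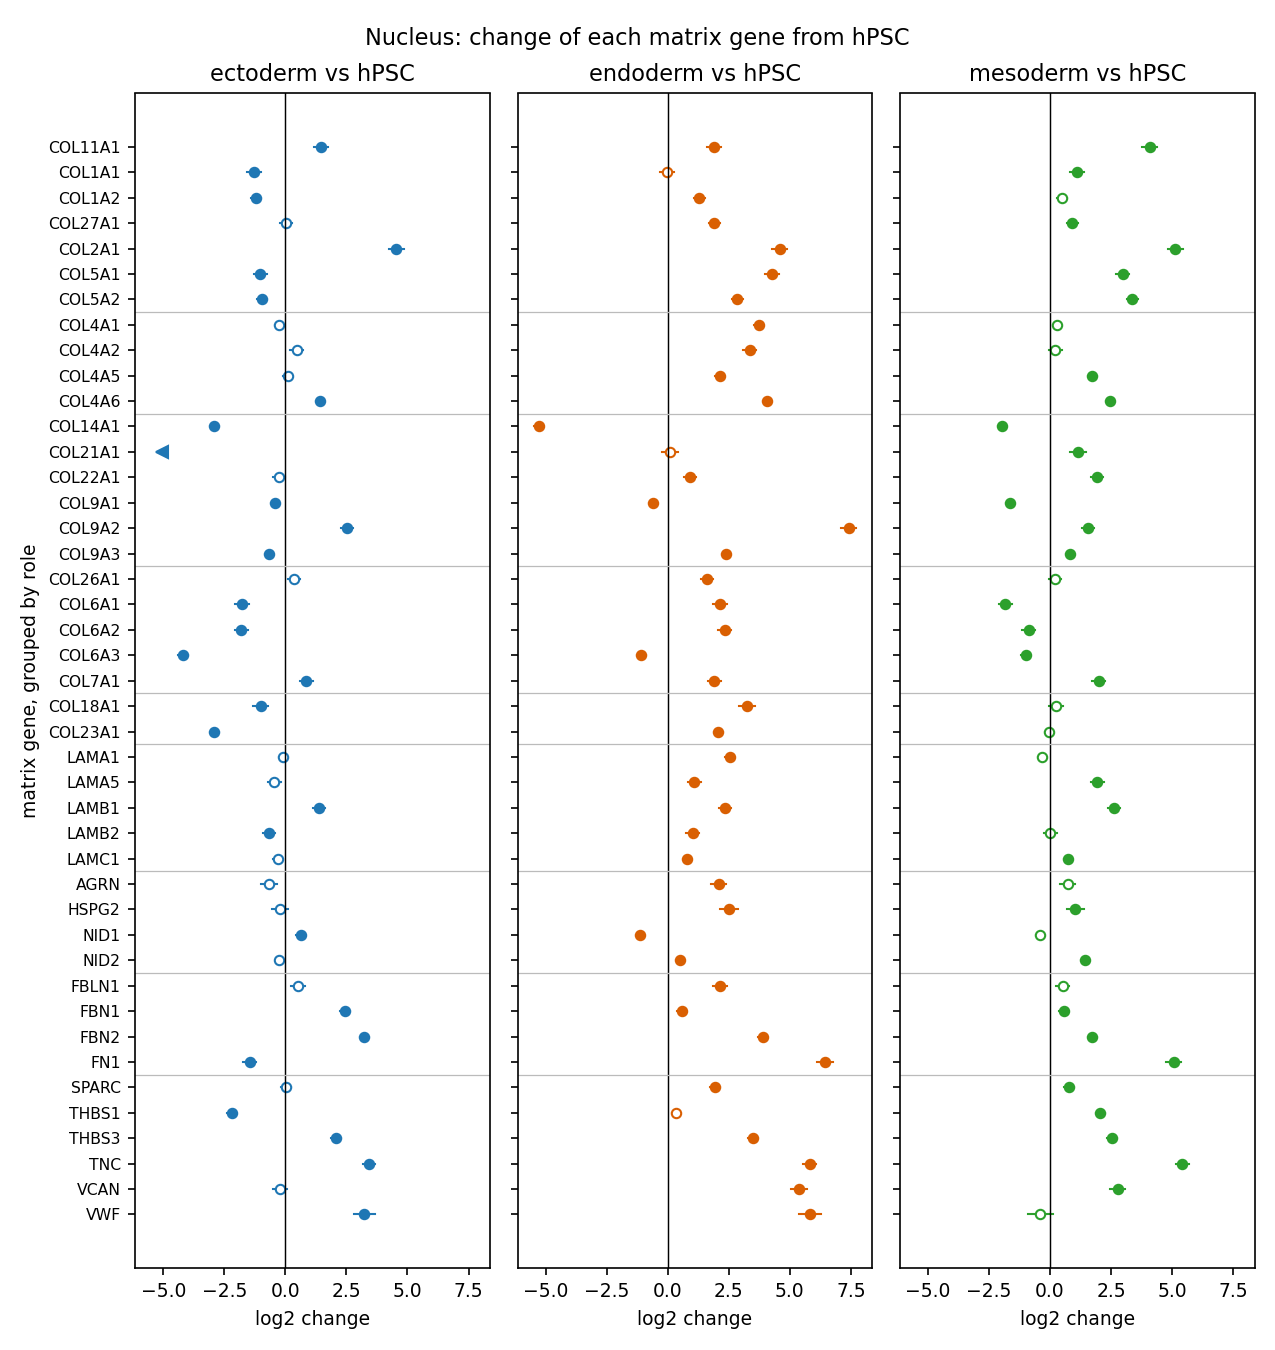
Log2 change of each matrix gene in the nucleus against hPSC (points with bars are edgeR estimates ± SE, filled where called, the triangle a gene drawn at its bound), genes grouped by role and lineages in panels, with 1 tested gene not drawn. Endoderm points lie mostly to the right of 0, up to COL9A2 at 7.42, whereas ectoderm has 12 genes called higher and 17 lower. Read from the authors' TPM, ectoderm has 9 higher and 24 lower, and of all genes called on TPM 29.4% are higher.

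Compared with each other in cytoplasm, the lineages differed in which matrix genes were high. Ectoderm against endoderm had 22 higher and 16 lower (71.8% of all genes called, 37.1% higher and 34.7% lower), led by FBN1 (3.88), NID1 (3.32) and COL2A1 (3.30), with FN1 (-5.21), VCAN (-2.85) and COL23A1 (-2.14, which turned on TPM without a call) lowest. On TPM the split was 20 higher and 12 lower, and 40.3% of all genes called on TPM were higher. Ectoderm against mesoderm had 20 higher and 13 lower (61.4% called, 29.8% higher and 31.5% lower), led by FBN1 (3.33), FBN2 (2.71) and COL9A1 (2.44), with FN1 (-5.42), THBS1 (-2.82) and COL5A2 (-2.80) lowest. Endoderm against mesoderm had 12 higher and 22 lower (53.5% called, 25.0% higher and 28.4% lower). VCAN (3.42), COL9A2 (3.09), LAMA1 (2.18) and COL6A1 (1.90) were higher in endoderm. COL2A1 (-3.58), THBS1 (-2.28), LAMA5 (-2.02) and COL11A1 (-1.91) were lower.

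Within a cell type, the RNA of these secreted proteins was lower in the cytoplasm than in the nucleus library, per library total and after TMM scaling. By edgeR, 51 of 54 genes tested in hPSC were lower in cytoplasm (median log2 difference -3.43), where 65.4% of all genes were called, 35.0% higher and 30.3% lower. In endoderm it was 48 of 48 (median -4.34, 69.7% called, 34.3% higher and 35.4% lower), in mesoderm 53 of 53 (median -3.21, 63.2% called, 31.8% higher and 31.4% lower) and in ectoderm 46 of 53 (median -2.10, 53.7% called, 27.2% higher and 26.5% lower). Scaled by library totals alone, ectoderm had 1 gene higher and 45 lower, while 76.4% of all genes called under that scaling were higher. Among the lowest were COL6A3 (-4.73) and FBN2 (-4.87) in hPSC, TNC (-3.61) in ectoderm, COL18A1 (-6.14) and COL4A2 (-6.13) in endoderm and FN1 (-3.91) in mesoderm. FN1 was 47.6-fold lower in endoderm cytoplasm than in the endoderm nucleus.

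The genes that were not called lower in ectoderm cytoplasm included COL11A1 (-0.11), COL27A1 (-0.15), VCAN (-0.16), LAMB3 (-0.03), LAMA2 (0.08), COL25A1 (0.30) and COL4A4 (0.64). In hPSC they were COL17A1 (0.67), COL5A3 (0.57) and VWF (-0.66). COL11A1 read 109, 42.9 and 88.9 CPM in the ectoderm nucleus and 105, 73.7 and 96.1 in ectoderm cytoplasm, so its libraries overlapped. SPARC, a short and abundant messenger, differed by -1.44 in ectoderm, -1.97 in mesoderm, -2.96 in hPSC and -3.19 in endoderm. In mesoderm COL5A3 had 0 counts in cytoplasm and was at least 3.60-fold lower there than in the nucleus.

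Other RNAs that are translated at the endoplasmic reticulum lay on the same side. Of 34 further secretory-pathway genes measured in hPSC, 34 were lower in cytoplasm (median -3.37). In endoderm it was 34 of 34 (median -3.54), in mesoderm 36 of 36 (-2.69) and in ectoderm 34 of 36 (-1.75). Of 20 genes for cytosolic proteins, 18 were higher in hPSC cytoplasm (median 0.91), 13 in mesoderm (0.93) and 8 in endoderm (0.41), while in ectoderm 13 were lower (-0.51). RNA of the mitochondrial genome, which lies outside the nucleus, made up a median of 13.3% of hPSC nucleus counts and 0.530% of hPSC cytoplasm counts. The medians were 10.1% and 1.35% in ectoderm and 10.5% and 0.425% in endoderm. In mesoderm the order was the reverse, with 1.30% in the nucleus and 7.08% in cytoplasm. The part of organelles or membranes that stay with the nuclear pellet in the cytoplasm-to-nucleus differences of the matrix and other genes was not tested.

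**Figure D5:**
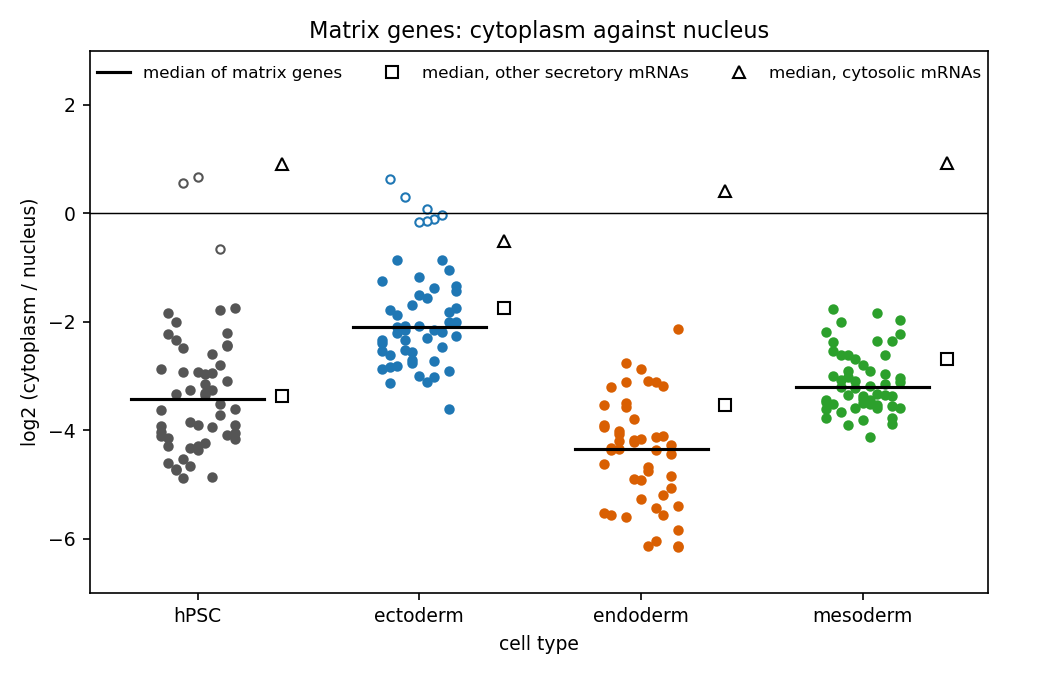
Log2 difference between cytoplasm and nucleus for each matrix gene, by cell type (filled points called by edgeR, open points not called; lines are medians of the matrix genes and open symbols the medians of the other secretory-pathway and the cytosolic gene lists). The matrix gene medians lie furthest below 0 in endoderm (-4.34) and nearest to 0 in ectoderm (-2.10), with hPSC (-3.43) and mesoderm (-3.21) between.

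Between the 2 nuclear subfractions the matrix genes split in hPSC and leaned to the nucleoplasm in endoderm. In hPSC 12 were higher and 13 lower on chromatin than in nucleoplasm (median 0.07, 30.4% of all genes called, 17.1% higher and 13.3% lower). In ectoderm 6 were higher and 25 lower (median -0.44, 44.1% called, 18.5% higher and 25.7% lower), and in endoderm 3 were higher and 35 lower (median -1.07, 53.4% called, 22.9% higher and 30.6% lower). On the authors' TPM this balance turned in hPSC, with 30 higher and 1 lower, and in ectoderm, with 20 higher and 3 lower, while endoderm had 7 higher and 20 lower. Of all genes called on TPM, 96.7%, 96.5% and 76.0% were higher on chromatin in hPSC, ectoderm and endoderm. The turn was therefore not particular to the matrix genes. Scaled by library totals alone, the splits were 20 and 5, 10 and 18, and 7 and 23. Of all genes called under that scaling, 86.5%, 71.0% and 73.8% were higher on chromatin. In hPSC the count of 25 called genes fell to 16 (10 higher, 6 lower) without nucleoplasm library 2.

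COL7A1, the anchoring fibril collagen of skin, and COL27A1, a fibrillar collagen of cartilage, lay furthest on the chromatin side in endoderm and ectoderm. In endoderm COL7A1 stood at 130, 107 and 132 CPM on chromatin and 7.39, 6.68 and 6.64 in nucleoplasm (log2 3.57 ± 0.25). COL27A1 stood at 386, 369 and 416 against 30.1, 28.3 and 25.2 (3.23 ± 0.17). The groups did not overlap for either gene. COL7A1 was higher on chromatin also in hPSC (2.73) and ectoderm (1.84), and COL27A1 likewise (1.81 and 1.27). At the other end in endoderm were SPARC (-2.47), FBLN1 (-2.07) and COL14A1 (-1.99). Other secretory-pathway genes lay on the nucleoplasmic side, with 31 of 34 lower on chromatin in endoderm (median -1.91).

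Against cytoplasm, chromatin held more of nearly every matrix gene. In hPSC 51 of 54 were higher on chromatin by edgeR (63.4% of all genes called, 35.2% higher and 28.2% lower), in endoderm 48 of 48 (73.0% called, 37.7% higher and 35.3% lower), in mesoderm 53 of 53 (66.4% called, 33.9% higher and 32.4% lower) and in ectoderm 47 higher and 1 lower (60.7% called, 29.0% higher and 31.7% lower).

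The size of the cytoplasm-to-nucleus difference changed with differentiation, tested as an interaction in edgeR. In ectoderm it moved towards the cytoplasm for 39 of 44 genes and towards the nucleus for 1 (median 1.67, 52.3% of all genes called, 26.3% towards the cytoplasm and 26.0% towards the nucleus). In endoderm 2 moved towards the cytoplasm and 22 towards the nucleus (median -0.79, 38.5% called, 20.0% towards the cytoplasm and 18.5% towards the nucleus). In mesoderm 14 and 1 did (median 0.60, 25.3% called, 18.5% towards the cytoplasm and 6.80% towards the nucleus). On the authors' TPM the mesoderm split turned to 1 and 18. The balance of all genes turned with it, and 5.29% of those called on TPM moved towards the cytoplasm. LAMB1 changed by 2.86 ± 0.28 in ectoderm and 1.61 ± 0.28 in mesoderm, the latter lost on TPM. COL11A1 changed by 2.98 ± 0.36 in ectoderm, while VWF changed by -5.48 ± 0.64 and COL9A2 by -3.55 ± 0.34 in endoderm. The other secretory-pathway genes moved alike, with 34 of 34 towards the cytoplasm in ectoderm (median 1.51), and the cytosolic genes the other way, with 18 of 20 towards the nucleus (median -1.29). The mitochondrial share of ectoderm cytoplasm, 1.35%, was above that of hPSC cytoplasm, 0.530%. Its part in this change was not tested.

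The other 19 genes were missing from at least 1 table, and a gene missing from a table has no listed transcript there, which says nothing of its reads. COL10A1, COL4A3 and LAMA3 were listed in ectoderm alone, and COL15A1 and COL20A1 in mesoderm alone, with no library of these 5 genes above 0.889 CPM. COL3A1, the type III collagen of soft connective tissue, was listed in hPSC and mesoderm. It had 0 counts in the 3 hPSC cytoplasm libraries and stood at 36.3, 28 and 34.8 CPM in mesoderm cytoplasm and 460, 446 and 436 CPM in the mesoderm nucleus. COL12A1, a FACIT collagen, was at 333, 297 and 274 CPM in the mesoderm nucleus and at a mean of 8.26 CPM in the hPSC nucleus. COL8A1, a short-chain network collagen of vessels and cornea, stood at 57.8, 65.7 and 63.8 CPM in the mesoderm nucleus, and had 0 counts in ectoderm nucleus and cytoplasm. LAMA2, the alpha chain of muscle and nerve laminin, stood at 8.62, 7.99 and 8.39 CPM in ectoderm cytoplasm and 2.16, 2.14 and 3.58 in hPSC, and had 0 counts in the endoderm nuclear fractions.

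The other genes that lacked a table were low in cytoplasm and were not tested between cell types. LAMC3, a laminin gamma chain, stood at 68.3, 94.5 and 83.5 CPM in the hPSC nucleus, 96.8, 49.2 and 49.8 in endoderm and 30.2, 23.3 and 29.3 in mesoderm, so that mesoderm lay below both. COL16A1, a FACIT collagen, was at 73.9, 61.7 and 66 CPM in the mesoderm nucleus, above 27.7, 43.9 and 32.6 in hPSC and 23.1, 13.3 and 22.3 in ectoderm. The transmembrane collagen COL13A1 was at 17.1, 19.4 and 24.3 CPM in the endoderm nucleus and below 12 in the hPSC and ectoderm nuclei. LAMB3 and COL25A1 also had their highest nuclear levels in mesoderm, at 13.6, 11.7 and 13.7 and at 11.6, 15.7 and 14.2 CPM. COL11A2 did not exceed 20.2 CPM in any nucleus library, and COL4A4, COL5A3, COL17A1 and LAMA4 stayed under 6 CPM in the cytoplasm and nucleus libraries.

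The genes were represented by 116, 177, 142 and 125 transcripts in the hPSC, ectoderm, endoderm and mesoderm tables. In the nucleus libraries FN1 kept its main transcripts across cell types, unlike in the single mesoderm nucleoplasm library described at the end. ENST00000323926.10 held 55.8% of nuclear FN1 counts in mesoderm, 59.8% in endoderm, 60.0% in hPSC and 65.9% in ectoderm, and ENST00000354785.11 held 33.6%, 37.0%, 40.0% and 34.1%. VCAN was represented differently in each assembly. In endoderm nucleus 67.3% of its counts were in ENST00000343200.9, in the hPSC nucleus 95.7% in ENST00000513984.5, and in the mesoderm nucleus 95.2% in a transcript with no Ensembl name. Differences in VCAN between cell types therefore also compare different transcript models.

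Among the enzymes that modify and fold collagen, more were higher than lower in the cytoplasm of each lineage. Of 24 measured in every cell type, 15 were higher and 4 lower in ectoderm, 15 and 2 in endoderm, and 17 and 4 in mesoderm. Over all genes the shares higher and lower were 39.0% and 37.0% in ectoderm, 27.4% and 32.2% in endoderm and 34.9% and 33.0% in mesoderm, and they apply to each list that follows. FKBP7, a prolyl isomerase of the endoplasmic reticulum, rose by 4.54, 2.53 and 3.95 on the log2 scale, and P4HA1, the catalytic subunit of prolyl 4-hydroxylase, by 2.82 in ectoderm and 1.89 in endoderm. PCOLCE, an enhancer of procollagen cleavage, fell by 1.50, 1.15 and 0.62. In endoderm nucleoplasm 24 of 24 enzyme genes were higher (median 2.04), where 36.9% of all genes were.

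Of 16 genes for matrix receptors, 11 were higher and 3 lower in ectoderm cytoplasm, 10 and 3 in endoderm, and 12 and 3 in mesoderm. ITGA5, the alpha chain of the fibronectin receptor, rose by 2.09 in both ectoderm and endoderm. CD44, the hyaluronan receptor, fell by 2.94 in ectoderm and rose by 2.43 in mesoderm, and ITGA6, a laminin receptor chain, fell by 0.70, 1.14 and 0.64. Of 14 matrix proteases and inhibitors, 7, 9 and 8 were higher and 3, 1 and 1 lower in ectoderm, endoderm and mesoderm. TIMP3, an inhibitor bound to matrix, rose by 3.54 in ectoderm, SERPINE2 by 4.65 in endoderm and MMP2, the gelatinase that cuts type IV collagen, by 2.47 in mesoderm. The 34 other secretory-pathway genes had 29, 19 and 18 higher and 3, 5 and 5 lower, and the 20 cytosolic genes 2, 1 and 2 higher and 17, 13 and 16 lower. The rise of the matrix genes in cytoplasm stood beside a rise in most of these other secretory RNAs, and whether both share a source was not tested.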

How the data were processed

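Count and TPM tables at transcript level, 1 pair for each cell type's own transcript assembly and 1 pair for a combined assembly, were deposited by the authors. STAR, RSEM and hg38 are named per the submitters' processing notes, with no role or order; the deposited counts are whole numbers per transcript, and the deposited TPM are scaled for transcript length and library total. Column names gave each library's sample, except the single mesoderm nucleoplasm column, taken as its group, and 1 column that matches no sample and was not used. Columns with the fraction code Nei were read as the nucleus samples, because the remaining codes stand for cytoplasm, nucleoplasm and chromatin.

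Counts were summed per Ensembl gene. Differences were tested with edgeR 4.0.16 (R 4.3.3) by quasi-likelihood F tests, after TMM scaling and a filter (filterByExpr, minimum count 10), on the whole table, with Benjamini-Hochberg adjustment over all genes. Called means an adjusted p below 0.05. CPM are per library total and were not scaled by TMM; log2 values and folds were. SE is the log2 change divided by the square root of F. Alternatives were library totals without TMM, DESeq2 1.42.0, no filter, limma 3.58.1 on log2(TPM + 1) from the authors' TPM, the replicate number as a block, the combined assembly and leaving out each library. Tested on simulated counts for ectoderm against hPSC cytoplasm (10667 genes), edgeR recovered 77% of 2-fold and 100% of 4-fold changes. The changed genes, 100 at each fold, were drawn from well-counted genes, and the same spread was set for all genes. Recovery for genes with few counts, for wider spread or with most genes changed was not tested. No library pair of a group was identical (45 pairs; the lowest chi-square was 4.575 per degree of freedom). Intervals for single counts were not computed, and the floor of 3 counts covers counting error only.

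The genes, roles and further lists were chosen with earlier results of these data known, so their counts are descriptions. For a comparison, up to 6 genes in each direction were described, among called genes whose libraries did not overlap and whose mean reached 5 CPM in 1 group; the 12 with the highest TPM, and genes that give a role's course, were described whether called or not. Of the other lists, up to 3 genes in each direction were named. Promoters are from RefSeq. Results of 1 gene are not reported by name here; it stays in the totals over all matrix genes.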

Additional observations from a re-analysis of the deposited data

Results flagged for a closer look

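The change of the cytoplasm-to-nucleus difference between each lineage and hPSC was tested as an interaction in edgeR. Of 44 matrix genes, 40 were called in ectoderm, 24 in endoderm and 15 in mesoderm. Of all genes tested, 52.3%, 38.5% and 25.3% were called. These 3 tests share the hPSC libraries. In ectoderm the difference moved towards the cytoplasm for COL11A1 (2.98 ± 0.36 log2), COL5A1 (2.91 ± 0.33), LAMB1 (2.86 ± 0.28), COL4A5 (2.79 ± 0.23), COL14A1 (2.75 ± 0.32) and FBN2 (2.46 ± 0.29), and towards the nucleus for VWF (-2.33 ± 0.61). In endoderm it moved towards the cytoplasm for COL14A1 (2.61 ± 0.41) and LAMB1 (0.81 ± 0.28, a call that leaving out a library could end). It moved towards the nucleus for VWF (-5.48 ± 0.64), COL9A2 (-3.55 ± 0.34), COL18A1 (-1.97 ± 0.35), COL2A1 (-1.94 ± 0.38), COL7A1 (-1.87 ± 0.35) and COL9A3 (-1.84 ± 0.26). In mesoderm it moved towards the cytoplasm for COL14A1 (1.61 ± 0.32), LAMB1 (1.61 ± 0.28), FBN2 (1.41 ± 0.29), LAMC1 (1.37 ± 0.23), COL2A1 (1.26 ± 0.36) and SPARC (1.06 ± 0.23), and towards the nucleus for VCAN (-1.21 ± 0.35). On the authors' TPM the mesoderm calls of LAMB1, LAMC1, SPARC and FBN2 were lost, and COL2A1 was called in the other direction.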

How the results depend on the processing

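Under library totals without TMM, DESeq2, no filter and limma on TPM, each of the 28 counts of called matrix genes stayed within 1.5 times its value, as did the 3 counts recomputed on the combined assembly. The replicate number as a block moved no count by more than 4 genes, and in none of 25 pairings did the deviations of every same-numbered pair correlate above 0.1, although some pairs did, so the numbers were not taken to pair libraries. Leaving out 1 library moved 1 count past that limit, the hPSC chromatin against nucleoplasm count (25 genes), which ranged from 16 to 21. Directions depended on the authors' TPM more than on any other alternative. COL4A1 reversed in ectoderm (-3.98), endoderm (-1.66) and mesoderm (-4.63) cytoplasm, mesoderm chromatin (-1.60), ectoderm nucleoplasm (-1.05), hPSC cytoplasm against nucleus (0.19) and the ectoderm change of that difference (-2.65). COL6A2 (0.0422) and COL6A3 (0.007) reversed in the mesoderm nucleus, and COL23A1 in ectoderm against endoderm cytoplasm (0.27). On chromatin against nucleoplasm FBLN1 (0.19) and FN1 (0.14) reversed in hPSC, and COL4A2 (0.12) and HSPG2 (0.40) in ectoderm. SPARC reversed in ectoderm chromatin against cytoplasm (0.40). For the mesoderm change of the difference COL2A1 (-0.94), FBN2 (-0.71) and FN1 (-0.30) reversed, and COL4A6 (-1.08), COL5A1 (-0.98) and NID2 (-0.93), not described above for it, were called in the other direction. So were COL23A1 in endoderm cytoplasm (-0.73) and VCAN in ectoderm against mesoderm cytoplasm (-0.93). The cause was not tested, beyond the short COL4A1 transcript described. Of 472 results for single genes, 53 lost their call under at least 1 alternative. Dropping TMM moved the median of all genes by -0.48 to 0.70 on the log2 scale, and TPM by -0.82 to 0.83. Splits of matrix genes, higher and lower, under library totals were 29 and 3 in endoderm cytoplasm, 33 and 5 in endoderm nucleus, 36 and 4 on endoderm chromatin, 40 and 1 in endoderm nucleoplasm, 12 and 21 for endoderm against mesoderm, 50 and 1 for ectoderm chromatin against cytoplasm, and 6 and 13 and 11 and 3 for the endoderm and mesoderm changes. On TPM they were 27 and 4, 35 and 4 in endoderm and mesoderm cytoplasm, 32 and 4, 36 and 3 in their nuclei, and 34 and 2, 34 and 4 on their chromatin. Of all called genes, the shares higher under library totals were 66.9%, 30.1%, 37.8%, 27.4%, 63.6%, 64.9%, 92.0% and 48.8%, in the same order. On TPM they were 77.3% and 63.8%, 31.2% and 88.4%, and 36.4% and 65.7%. Mesoderm nucleoplasm, with 1 library, allowed no test, and genes near the floor of 3 counts allowed bounds only.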

Other observations

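In the single mesoderm nucleoplasm library FN1 was spread over other transcripts than in the mesoderm nucleus. ENST00000323926.10 held 11.8% of its counts there, against 55.8% in the nucleus, and ENST00000336916.8 held 35.0%. LAMB1 in that library had 52.4% of its counts in ENST00000677101.1 and 43.8% in ENST00000222399.11, the transcript that held 86.3% in the mesoderm nucleus. With 1 library these are values without a test.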
